A study of Homo sapiens with 8 samples.

Results

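The stretch of chromosome 11 from 110 to 120 Mb (hg19) was described in HT and SUDHL6, established cell lines from diffuse large B cell lymphomas, both untreated and kept in RPMI medium with serum. It was chosen by measured values, because many of the widest H3K27me3 islands of HT lie in it. The H3K27me3 widths and lengths of HT are therefore given as a description and support nothing. ChIP-seq had 1 library for each line with antibodies to H3K27me3, EZH2 and H3K4me3, so no test between lines was possible. All islands overlapping the segment were taken, 523 of the 58757 islands in the 6 deposited lists. They comprised 235 HT and 136 SUDHL6 islands of H3K27me3, 17 and 17 of EZH2, and 60 and 58 of H3K4me3. None crossed an edge of the segment. The nearest HT H3K27me3 islands inside the edges were 6.6 kb and 3.0 kb wide, and those just outside were 3.3 kb and 2.55 kb. How deeply each library was sequenced is unknown here, so the mark may be present where no island was called. Shares carry 95% intervals by the exact method of Clopper and Pearson, which take in counting error alone.

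EZH2 is the methyltransferase of Polycomb repressive complex 2 and places methyl groups on lysine 27 of histone H3. The trimethylated form, H3K27me3, marks repressed chromatin and can spread over broad domains, whereas H3K4me3 marks the promoters of active or poised genes. The complex is usually found at unmethylated CpG islands, from which its mark spreads outwards. The long arm of chromosome 11 around this segment carries genes of B cells beside genes of nerve, liver and T cells. In the order of RefSeq's GRCh38.p14 annotation it carries POU2AF1 (a B cell coactivator of octamer-binding factors), NCAM1 (a neural adhesion molecule), DRD2 (a dopamine receptor), HTR3B and HTR3A (serotonin receptor subunits), ZBTB16 (a zinc finger repressor) and CADM1 (a cell adhesion molecule). There follow the apolipoprotein genes APOA5, APOA4, APOC3 and APOA1, and CD3E, CD3D and CD3G, the CD3 subunits of the T cell receptor complex. After them come KMT2A (an H3K4 methyltransferase), CXCR5 (the chemokine receptor of B cell follicles), the histone gene H2AX and the ubiquitin ligase CBL. Gene positions on hg19 were not used here, so no island was assigned to any of these genes.

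H3K27me3 filled a large part of the segment in HT and little of it in SUDHL6. Islands covered 2699 kb in HT, 27% of the segment, and 422.4 kb in SUDHL6, 4.22% of it. On the log2 scale HT exceeded SUDHL6 in covered length by 2.68 here and by 0.08 over the whole lists. The segment held 4.96% of all HT H3K27me3 length and 0.823% of that of SUDHL6. Ranked by HT H3K27me3 length, it stood at rank 1 of 293 windows of 10 Mb on the autosomes, the property for which it was chosen. SUDHL6 H3K27me3 ranked 39, with a median window of 51.15 kb, so SUDHL6 also had more here than in most windows. EZH2 and H3K4me3, which played no part in the choice, covered more in HT as well. EZH2 covered 208.35 kb in HT and 76.65 kb in SUDHL6 (log2 ratio 1.44), and H3K4me3 covered 307.2 kb and 124.5 kb (log2 ratio 1.30). Over the whole lists these ratios were 0.33 and -0.37. The numbers of EZH2 and H3K4me3 islands were nearly equal between lines, so in the full lists their extra length in HT lay in wider islands. For EZH2 this turned on the score: within the upper 50% of scores of each list, HT had 14 islands here and SUDHL6 5. That cut used the score of the whole island, which tended to rise with width, so it favours wide islands. The HT EZH2 island of 31.95 kb had a score of 477, and that of 1.35 kb had 33. All 3 antibodies thus covered more in HT. The number of DNA copies of the segment was not measured in either line, and its part in these differences was not tested.

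**Figure D1:**
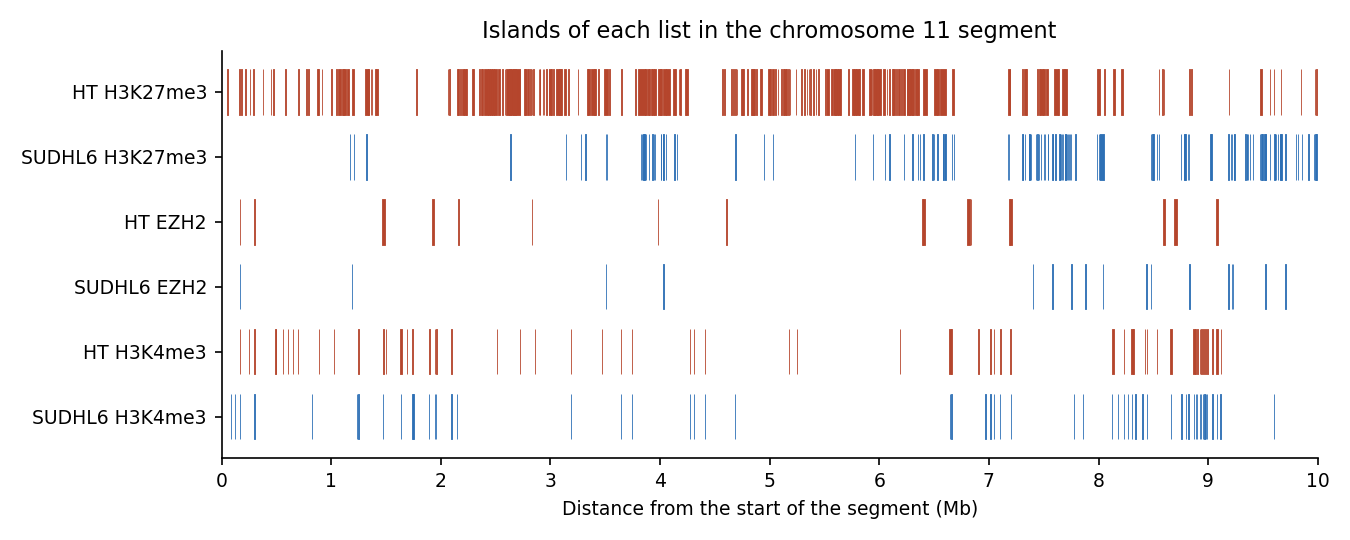
Position of every island in the segment, 1 row for each line and antibody, with the x axis giving the distance in Mb from the start of the segment and each bar spanning its island. HT H3K27me3 (235 islands) is dense from 2 to 7 Mb, where SUDHL6 H3K27me3 (136 islands over the segment) is sparse, and in both lines H3K4me3 is crowded between 8 and 9 Mb.

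In bins of 1 Mb, HT H3K27me3 rose to a plateau in the middle of the segment and fell away towards its end. From 110 to 111 Mb it covered 118.8 kb, and from 111 to 112 Mb 189.0 kb. The most was 475.55 kb, from 112 to 113 Mb, which is 47.6% of that bin. The next 4 bins held 432.7, 297.25, 428.5 and 396.25 kb. From 117 to 118 Mb the length was 236.95 kb, from 118 to 119 Mb 94.1 kb, and from 119 to 120 Mb 30.3 kb, the least of any bin. SUDHL6 H3K27me3 was instead highest towards the end of the segment. It was at 0 from 110 to 111 Mb and between 1.05 and 39.15 kb in each of the 6 bins from 111 to 117 Mb. It then covered 102.9, 67.8 and 135.9 kb in the last 3 bins, the last being its highest. HT covered more in 9 of 10 bins, and SUDHL6 covered more from 119 to 120 Mb.

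EZH2 covered more in HT in 7 of 10 bins. HT EZH2 was highest from 116 to 117 Mb (53.1 kb) and from 111 to 112 Mb (48.75 kb), and neither line had an EZH2 island from 115 to 116 Mb. The first of these bins belonged to the H3K27me3 plateau. In its other 4 bins, from 112 to 116 Mb, HT EZH2 covered 7.35 kb, 1.5 kb, 5.55 kb and 0 kb. SUDHL6 EZH2 was highest in the bins where SUDHL6 H3K27me3 was highest, with 17.1, 21.45 and 24.75 kb in the last 3 bins and at most 4.65 kb in any earlier bin. H3K4me3 peaked in the same bin in both lines, from 118 to 119 Mb, with 123.6 kb in HT and 50.55 kb in SUDHL6. Its lowest values lay in the middle of the segment, 3.0 kb in HT from 114 to 115 Mb and 0 kb in SUDHL6 from 115 to 116 Mb. HT covered more H3K4me3 in 9 of 10 bins, the exception being 114 to 115 Mb with 3.0 kb in HT and 6.3 kb in SUDHL6.

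**Figure D2:**
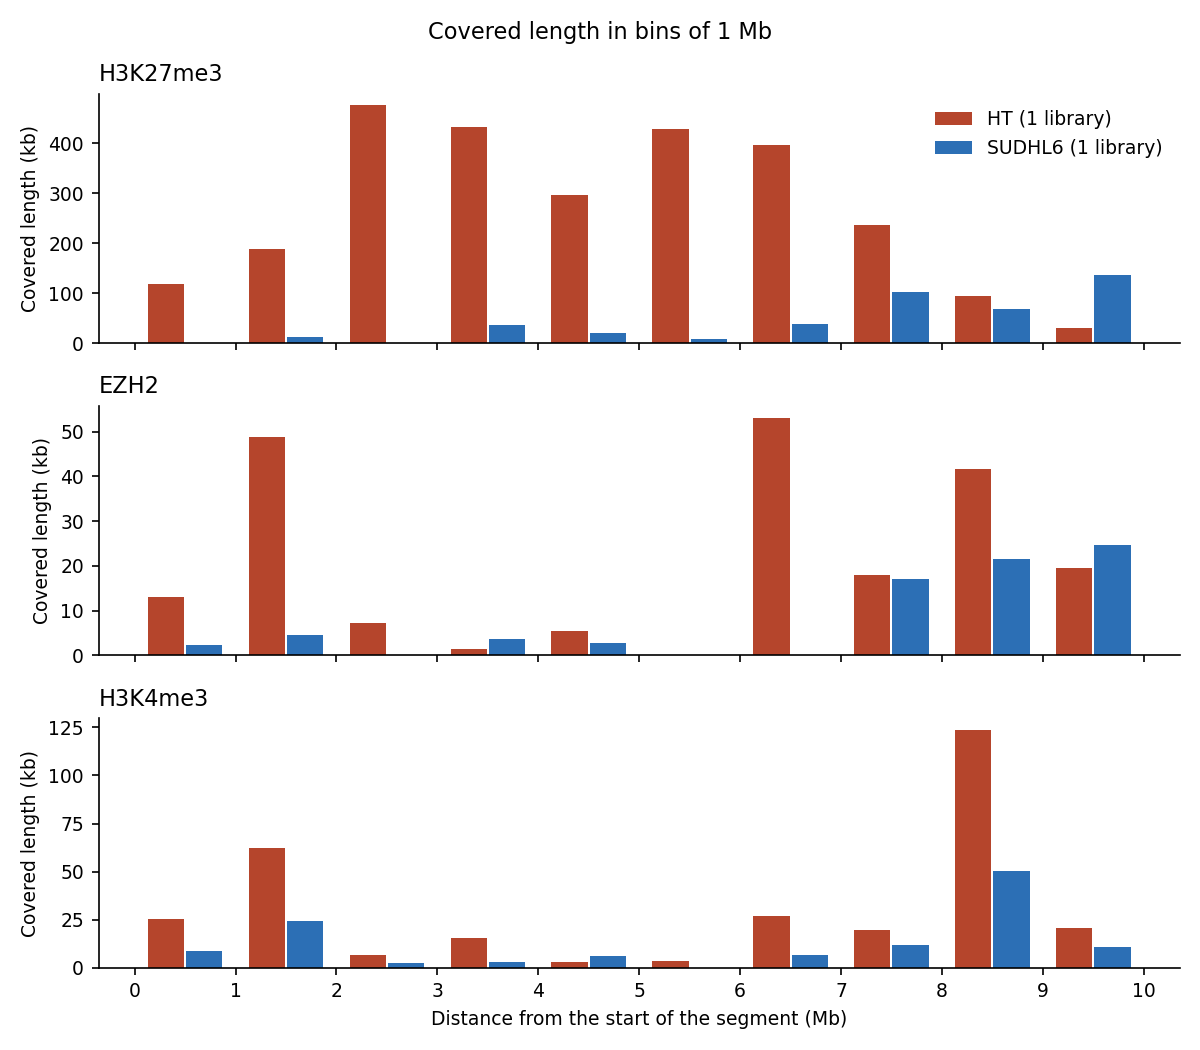
Covered length in kb (y axis, each panel from 0) in the 10 bins of 1 Mb, by distance from the start of the segment, for H3K27me3, EZH2 and H3K4me3, with 1 bar per line and 1 library behind each bar. HT H3K27me3 is highest at 475.55 kb in the bin from 2 to 3 Mb, and SUDHL6 H3K27me3 at 135.9 kb in the last bin.

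The higher covered lengths of HT did not begin at the start of the segment. In the 10 Mb before it, HT and SUDHL6 covered 243.45 and 3.6 kb with H3K27me3, 62.55 and 0 kb with EZH2, and 194.55 and 68.25 kb with H3K4me3. H3K4me3 was higher in HT in 9 of the 10 bins there. In the 10 Mb after the segment the lengths were 47.55 and 76.95 kb for H3K27me3, 13.5 and 10.35 kb for EZH2, and 39.3 and 55.65 kb for H3K4me3, and HT was higher in 3 of 10 bins for H3K4me3. Over the whole of chromosome 11 the log2 ratios were 0.46 for H3K27me3, -0.20 for EZH2 and 0.05 for H3K4me3. By the H3K4me3 ratio alone, with 3 kb added to both lines, the segment stood at rank 3 of 293 windows (log2 ratio 1.28, median window -0.29). By EZH2 it stood at rank 123 (1.41, median 1.11). By H3K27me3 it stood at rank 61 (2.67, median 0.90), so many windows had a larger ratio. Such a ratio can be large where SUDHL6 covered little, as in the 10 Mb before the segment, and it does not rank the length gained.

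Islands of every antibody were wider here in HT than in its whole list, which was not so in SUDHL6 for H3K27me3 and EZH2. For H3K27me3 the median width was 9750 bp in HT, against 2550 bp in its whole list, and 2700 bp in SUDHL6, against 3000 bp. The widest was 61.95 kb in HT and 11.85 kb in SUDHL6. For EZH2 the medians were 6600 bp in HT (whole list 3600 bp) and 3750 bp in SUDHL6 (4500 bp). For H3K4me3 they were 4125 bp in HT (2100 bp) and 2100 bp in SUDHL6 (1950 bp). Islands of at least 10 kb made up 8 of 17 HT EZH2 islands, 47.1% (23.0 to 72.2%), against 3.45% of the whole list. They made up 9 of 60 HT H3K4me3 islands, 15% (7.10 to 26.6%), against 0.486%. In SUDHL6 they were 0 of 17 for EZH2 (interval up to 19.5%, whole list 11.8%) and 0 of 58 for H3K4me3 (up to 6.16%, whole list 0.677%).

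The deposited score per kb, the authors' own value, was read only within each list. The median HT EZH2 island of the segment stood at percentile 80.3 of its list by score per kb, and the median SUDHL6 EZH2 island at percentile 32.5. For H3K4me3 the percentiles were 51.1 in HT and 60.2 in SUDHL6. Among the HT EZH2 islands the narrow ones were mostly the denser. The 9 under 10 kb had a median of 22 per kb (range 13.6 to 29.4), and the 8 of at least 10 kb had 17 (14.1 to 19.4). In the whole HT list the medians were 14.9 under 10 kb and 15.9 from 10 kb. For H3K27me3 the percentiles were 86.8 in HT and 43.2 in SUDHL6.

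**Figure D3:**
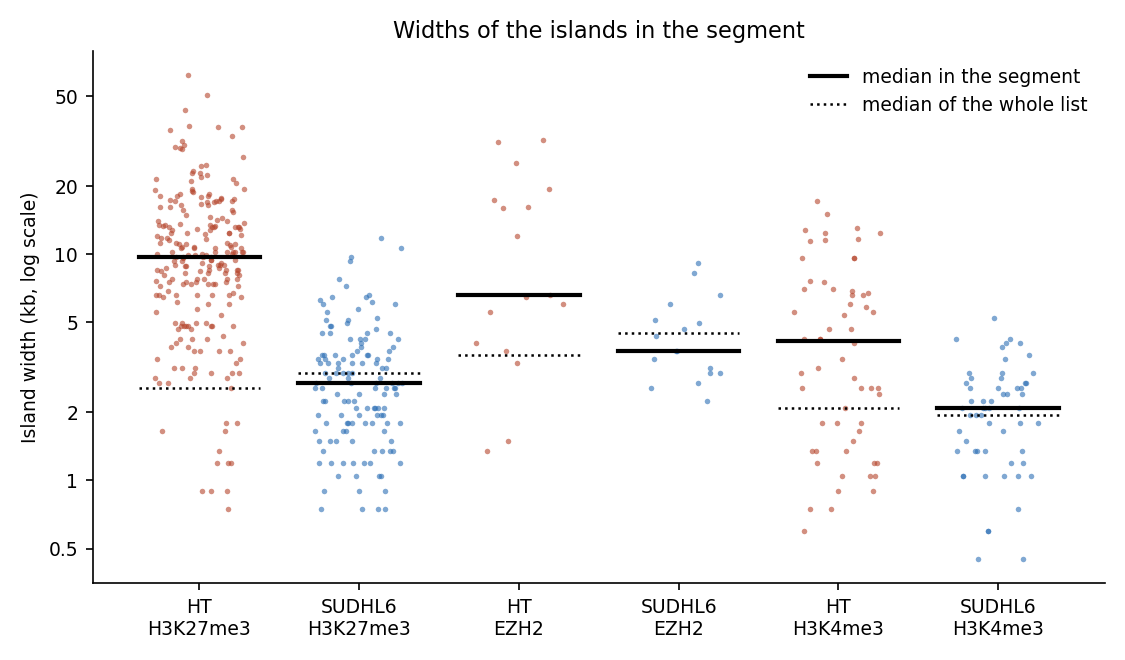
Width in kb (log scale) of each island in the segment, 1 point per island and 1 column per line and antibody, with a solid line at the median in the segment and a dotted line at the median of the whole list. The HT medians of 9750, 6600 and 4125 bp lie above those of their lists (2550, 3600 and 2100 bp), and the SUDHL6 medians lie close to or below theirs.

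Broad domains, taken as H3K27me3 islands of at least 10 kb, were almost wholly an HT feature of the segment, as its choice implies. HT had 112, or 47.7% (41.1 to 54.3%) of its islands against 2.19% in its list, and they held 72.8% of its H3K27me3 length here. These were 30.3% of all 370 such islands of HT. SUDHL6 had 2, or 1.47% (0.179 to 5.21%), against 4.61% in its list. The 112 HT domains ran from 110696101 to 119488950. In 19 places neighbouring domains lay within 5 kb of each other, which gathered 47 domains into runs. The longest run held 4 domains from 117455101 to 117534600, a span of 79.5 kb, and the next 4 domains from 112434001 to 112508100, a span of 74.1 kb. Islands under 10 kb were left out of this joining, so longer stretches of closely spaced islands exist. From 113798851 to 113965650, a stretch that starts with the widest HT island, each H3K27me3 island lay within 5 kb of the next.

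The 5 widest HT islands differed in what SUDHL6 had beneath them. The widest, 113798851 to 113860800 (61.95 kb), held 5 SUDHL6 islands that summed to 14.1 kb, and the next, 116556151 to 116606850 (50.7 kb), held 4 that summed to 11.55 kb. SUDHL6 had 1 island of 3.0 kb in the third, 116395051 to 116438400 (43.35 kb). It had none in the next, 112391251 to 112428150 (36.9 kb), and 1 of 2.25 kb in the last, 114053401 to 114089850 (36.45 kb). HT EZH2 lay over 42.6% of the 43.35 kb island and over none of the other 4, and H3K4me3 of either line lay over none of the 5. Besides the island of 36.9 kb, the widest HT islands with no SUDHL6 H3K27me3 were 112684351 to 112720650 (36.3 kb) and 113046901 to 113077350 (30.45 kb). Of the 112 domains, 38 held SUDHL6 H3K27me3, 33.9% (25.3 to 43.5%), against 54.3% of the 370 in the list, which include these 112. More than 1 SUDHL6 island lay in 11 domains, and 74 held none. SUDHL6 covered at least 50% of 2 domains, reaching 67.8% from 117692101 to 117714900.

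In SUDHL6 the widest islands lay mostly near the end of the segment. They were 118035001 to 118046850 (11.85 kb), 119237401 to 119248050 (10.65 kb), 119985301 to 119995050 (9.75 kb), 119024251 to 119033550 (9.3 kb) and 111321451 to 111329250 (7.8 kb). HT had no H3K27me3 at the islands of 11.85, 10.65 and 9.3 kb, which were also the widest SUDHL6 islands without it. HT H3K27me3 covered 30.8% of the island of 9.75 kb and all of that of 7.8 kb. SUDHL6 EZH2 covered 31.6% of the widest and none of the other 4.

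Where SUDHL6 had H3K27me3 inside the first 8 Mb, HT usually had it too, and in the last 2 Mb usually not. Over the segment, 65 of 136 SUDHL6 islands, 47.8% (39.2 to 56.5%), overlapped HT H3K27me3, against 27.8% of the SUDHL6 list. In the other direction the count was 48 of 235 HT islands, 20.4% (15.5 to 26.2%), against 21.2% of the HT list. In the first 8 Mb, a division made after the bins were seen, 57 of 84 SUDHL6 islands (67.9%) overlapped HT, where HT H3K27me3 covered 32.2% of the sequence. In the last 2 Mb 8 of 52 (15.4%) did, where HT covered 6.22%. How far the greater cover of HT sets the first share was not tested. The 2 lines shared 166.2 kb of H3K27me3, which was 6.16% of the HT length and 39.3% of the SUDHL6 length, against 18% and 19.1% over the whole lists.

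At the 47 places where H3K27me3 of both lines met, the HT islands were the wider in 43, against 47.5% of 3199 such places over the whole lists, with medians of 16.5 kb in HT and 3.0 kb in SUDHL6. The largest ratio was 33.0, from 117469201 to 117493950, with 24.75 kb in HT and 0.75 kb in SUDHL6. The smallest was 0.167, from 119184301 to 119191500, with 1.2 kb in HT and 7.2 kb in SUDHL6. The next smallest, 0.308 and 0.543, lay at 119985301 to 119995050 and at 119974651 to 119979900, so the 3 smallest were all in the last bin. Because HT widths led to the choice of the segment, these ratios are a description.

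Few EZH2 islands of the lines coincided, in the segment as in the whole lists. In each line 1 of 17 islands overlapped EZH2 of the other, 5.88% (0.149 to 28.7%), against 11.5% and 19.4% of their lists. That interval contains both list shares, so the segment cannot be told apart from the lists in this. The shared HT island spanned 110164051 to 110170650 (6.6 kb), and the SUDHL6 island within it 110166001 to 110168250 (2.25 kb). HT H3K27me3 covered all of it, and H3K4me3 of both lines lay within it, 1.2 kb wide in HT and 0.75 kb in SUDHL6. SUDHL6 had no H3K27me3 there, and its nearest H3K27me3 island was 1000.5 kb away.

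EZH2 lay over H3K27me3 of its own line in 8 of 17 HT islands, 47.1% (23.0 to 72.2%), and in 10 of 17 SUDHL6 islands, 58.8% (32.9 to 81.6%). The whole lists had 48.9% and 65.5%, so the segment's shares were near those of the lists. By length the overlap was smaller. H3K27me3 covered 43.05 kb of the HT EZH2 length, or 20.7% against 36.9% in the list, and 33.75 kb of the SUDHL6 EZH2 length, or 44% against 55.4%. Seen from H3K27me3, 8 of 235 HT islands, 3.40% (1.48 to 6.60%), held EZH2 against 7.77% in the list, and 10 of 136 SUDHL6 islands, 7.35% (3.58 to 13.1%), against 9.45%. Among the HT domains 3 of 112 held EZH2, 2.68% (0.556 to 7.63%), against 23.8% of the 370 in the list, which include these 112.

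The 8 HT EZH2 islands of at least 10 kb lay mostly outside H3K27me3, with 2 of 8 overlapping it, 25.0% (3.19 to 65.1%), against 48.3% of the 87 such islands in the HT list. The widest spanned 116797651 to 116829600 (31.95 kb), with the nearest HT H3K27me3 112.5 kb and the nearest HT H3K4me3 73.8 kb away. The next, 111459751 to 111491100 (31.35 kb), had H3K4me3 over 21.5% of its length and no H3K27me3 within 35.4 kb. The third, 118687651 to 118713000 (25.35 kb), had neither mark, with H3K4me3 20.4 kb away. Those from 119073001 to 119092500 (19.5 kb) and from 117195751 to 117207750 (12.0 kb) carried H3K4me3 over 65.4% and 48.8% of their length. The island from 111918451 to 111935850 (17.4 kb) had neither mark, with H3K4me3 7.65 kb away. The remaining 2 lay on H3K27me3, at 116398651 to 116414700 (16.05 kb, wholly covered) and at 118585801 to 118602000 (16.2 kb, 29.6% covered). None of these 8 overlapped SUDHL6 EZH2, and the nearest was 92.4 kb away.

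Of the other 9 HT EZH2 islands, none was wider than 6.6 kb. Besides the shared site, 5 lay on H3K27me3. They were 112158451 to 112162500 (4.05 kb), 112830751 to 112834050 (3.3 kb), 113981551 to 113983050 (1.5 kb), 116393701 to 116397450 (3.75 kb) and 117183601 to 117189600 (6.0 kb). The island from 110298901 to 110305350 (6.45 kb) lay wholly within an H3K4me3 island. Those from 114605251 to 114610800 (5.55 kb) and from 116836951 to 116838300 (1.35 kb) had neither mark. In all, 1 HT EZH2 island carried both marks, 7 H3K27me3 alone, 4 H3K4me3 alone and 5 neither. By length the neither class was the longest, 81.6 kb, followed by 69.3 kb with H3K4me3 alone and 50.85 kb with H3K27me3 alone. H3K4me3 was present at 5 of 17, 29.4% (10.3 to 56.0%), against 33.8% of the HT list.

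SUDHL6 EZH2 was made of narrow islands, 13 of 17 of them from 117401701 onwards. In order, those on SUDHL6 H3K27me3 lay at 113507551 to 113511300 (3.75 kb), 114029701 to 114032400 (2.7 kb), 117576901 to 117582900 (6.0 kb), 118040701 to 118044450 (3.75 kb), 118477801 to 118482900 (5.1 kb) and 118824001 to 118833150 (9.15 kb, the widest). They went on at 119184901 to 119193150 (8.25 kb), 119214451 to 119221050 (6.6 kb), 119521801 to 119526150 (4.35 kb) and 119704201 to 119706750 (2.55 kb). Islands with neither mark lay at 111189001 to 111193650 (4.65 kb), 117401701 to 117404850 (3.15 kb), 117752401 to 117757350 (4.95 kb), 117880651 to 117883650 (3.0 kb), 118434601 to 118438050 (3.45 kb) and 119225851 to 119228850 (3.0 kb). The 1 remaining island, at the site shared with HT, was the only one with H3K4me3, 5.88% (0.149 to 28.7%), against 16.5% of the SUDHL6 list. HT H3K27me3 wholly covered 4 of the 17, among them the SUDHL6 island of 9.15 kb, although HT EZH2 was absent from it.

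**Figure D4:**
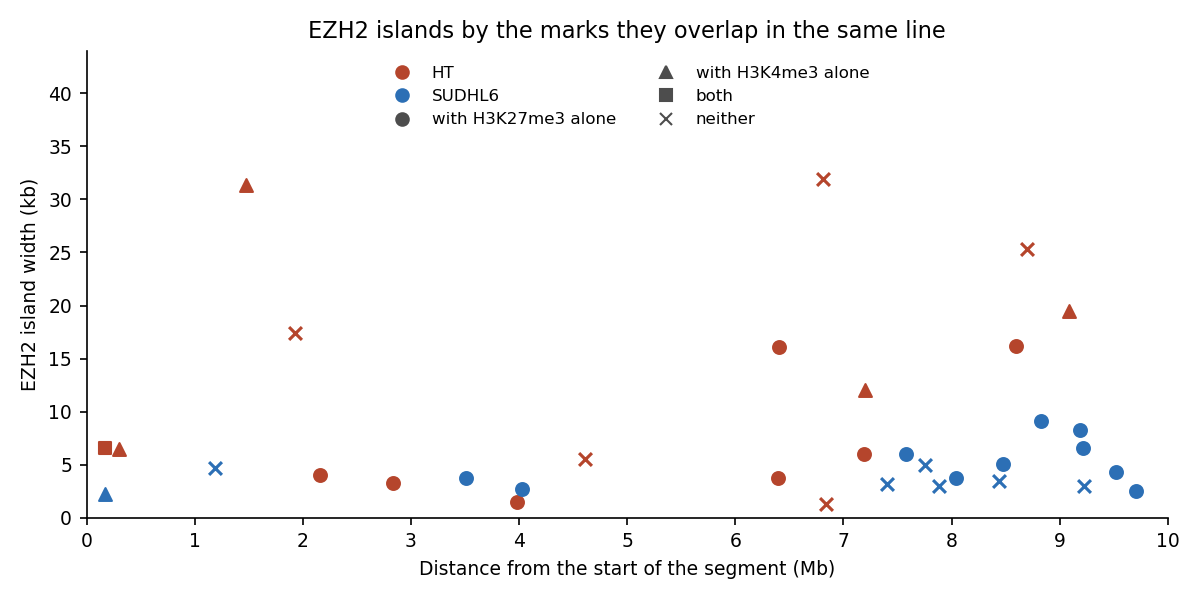
Width in kb (y axis) of each of the 17 HT and 17 SUDHL6 EZH2 islands by distance in Mb from the start of the segment, with the symbol giving the marks of the same line that the island overlaps. The 8 HT islands of at least 10 kb stand above every SUDHL6 island, whose widest is 9.15 kb, and 2 of the 8 lie on H3K27me3.

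Most H3K4me3 islands of the segment lay off the HT domains, a description for which no matching value over the whole lists was computed. By overlap with HT H3K27me3 of any width, HT H3K4me3 had a higher share here than in its list, 10.0% against 3.10%. The choice of the segment for wide HT H3K27me3 bears on that share. The distance to the nearest HT domain had a median of 90.3 kb for HT H3K4me3 and 98.25 kb for SUDHL6 H3K4me3, and 37 of 60 and 37 of 58 islands lay 50 kb or more away. On a domain lay 3 islands of each line. Neighbouring domains left 111 gaps with a median of 18.3 kb. Of the 76 gaps under 50 kb, HT H3K4me3 met 4 and SUDHL6 H3K4me3 0. Of the 16 gaps over 100 kb, H3K4me3 of 1 line or both met 14. Longer gaps offer more room for an island, and how far this accounts for the counts was not tested. The longest gap, 111424351 to 112143750 (719.4 kb), held 9 HT and 8 SUDHL6 H3K4me3 islands. It also held 48.75 kb of HT EZH2, and 19.95 kb of HT H3K27me3 in islands under 10 kb. The gaps of 639.0 kb from 118833751 to 119472750 and of 597.6 kb from 118223401 to 118821000 held 11 and 7 HT and 13 and 10 SUDHL6 H3K4me3 islands. In both of these gaps SUDHL6 had more H3K27me3 than HT, 55.35 against 10.35 kb and 37.95 against 19.65 kb. From 116685151 to 117177300 (492.15 kb), each line had 4 H3K4me3 islands, HT had 33.3 kb of EZH2, and HT had no H3K27me3.

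H3K4me3 was found largely at the same sites in both lines but was wider in HT. H3K4me3 of SUDHL6 lay at 37 of 60 HT islands, 61.7% (48.2 to 73.9%), and H3K4me3 of HT at 38 of 58 SUDHL6 islands, 65.5% (51.9 to 77.5%), against 74.4% and 59.0% of the lists. They formed 37 sites present in both lines. HT was the wider at 34 of them, against 47.2% of 8009 such sites over the whole lists. The median ratio of widths was 2.85 here and 1.00 over the whole lists. At the 37 sites the median width was 6.6 kb in HT (range 0.6 to 17.25 kb). It was 2.1 kb in SUDHL6 (range 0.6 to 5.7 kb). HT was at least 2 times wider at 26 sites and at least 5 times wider at 10. Most of the sites thus shared a place and not a width.

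The largest ratio was 16.4, at the widest HT H3K4me3 island. This island, 118120351 to 118137600, was 17.25 kb wide in HT, and SUDHL6 had an island of 1.05 kb within it. The next, 116636851 to 116651850, was 15 kb wide in HT and 2.1 kb in SUDHL6, and the third, 110295901 to 110308950, was 13.05 kb and 2.4 kb. Narrower HT islands could differ as much, with a ratio of 11 from 119038201 to 119044800 (6.6 kb in HT and 0.6 kb in SUDHL6). The widest SUDHL6 island, 111245551 to 111250800 (5.25 kb), met an HT island of 9.6 kb. The next 2, both 4.2 kb, had no HT H3K4me3. They lay from 118963201 to 118967400 and from 119596651 to 119600850.

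The 3 sites at which SUDHL6 was the wider were 114270301 to 114272850 (1.5 kb in HT and 2.55 kb in SUDHL6), 114310201 to 114311550 (0.6 and 1.35 kb) and 119112451 to 119115900 (1.2 and 3.45 kb). The last of these is also the last HT H3K4me3 island of the segment. Its neighbour, 119073301 to 119086050, was 12.75 kb wide in HT and 2.4 kb in SUDHL6, so the order of the lines turned between neighbouring sites. The last HT EZH2 island ended at 119092500, in the same interval. HT H3K27me3 went on beyond it, with 1 domain of 16.2 kb from 119472751 to 119488950. Without the last 2 Mb the median ratio at H3K4me3 sites was 2.33 over 21 sites, and in the last 2 Mb it was 3.22 over 16. In the 10 Mb before the segment it was 1.69 over 14 sites, and in the 10 Mb after it 1.10 over 23. H3K4me3 islands of 1 line alone were narrower in HT than its shared islands, with a median of 1650 bp over 23 islands against 6600 bp over 37. In SUDHL6 the medians were 2025 bp over 20 and 2100 bp over 38.

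**Figure D5:**
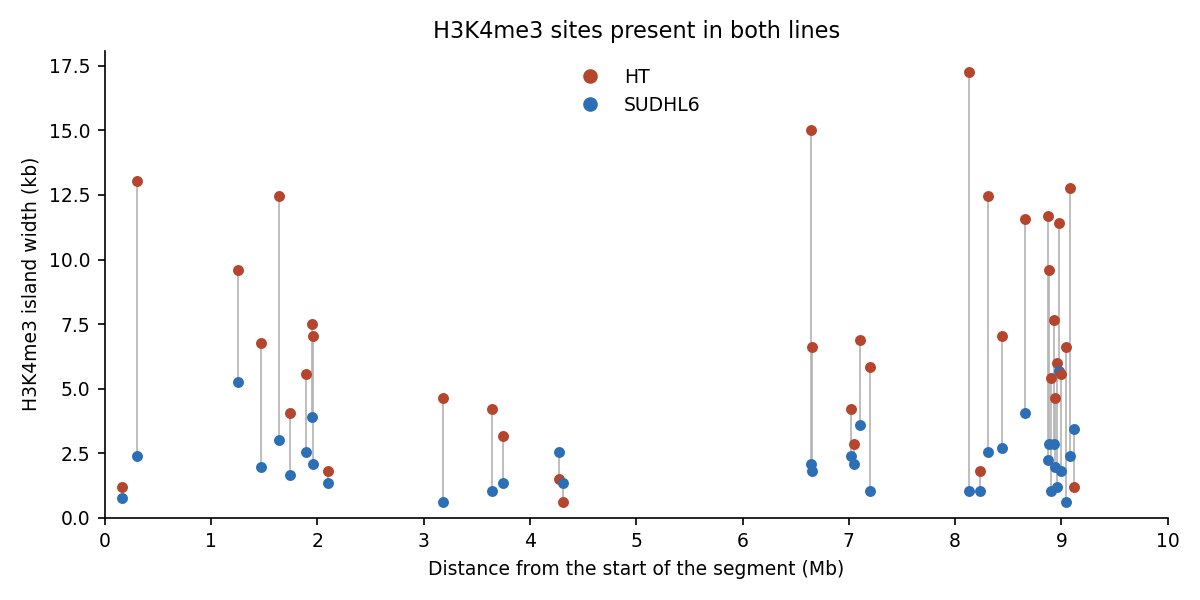
Width in kb (y axis) of the H3K4me3 islands at the 37 sites present in both lines, by distance in Mb from the start of the segment, with a grey line joining the 2 lines at each site. HT lies above SUDHL6 at 34 sites, and the 3 exceptions include the last site, with 1.2 kb in HT and 3.45 kb in SUDHL6.

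Both histone marks overlapped in 1 line at few places. In HT the share was above that of its list, but the segment was chosen for wide HT H3K27me3, which covered 27% of it. That comparison is therefore a description and supports nothing. In HT 6 of 60 H3K4me3 islands, 10.0% (3.76 to 20.5%), met H3K27me3 of the same line, against 3.10% of the list. In SUDHL6 1 of 58 did, 1.72% (0.0436 to 9.24%), against 2.35%. The longest HT overlap was 5100 bp, from 118132501 to 118137600, where the widest H3K4me3 island ran into an H3K27me3 domain of 18 kb. The next spanned 2400 bp from 113644201 to 113646600, at the edge of a domain of 12.9 kb. At 110166451 to 110167650 the whole H3K4me3 island of 1200 bp lay inside H3K27me3 of 9.75 kb and inside EZH2 of both lines. The other 3 overlaps, of 1050, 750 and 450 bp, were 110295901 to 110296950, 110885701 to 110886450 and 112720201 to 112720650. The site at 110166451 was thus the only 1 of the 6 at which the H3K4me3 island lay wholly inside H3K27me3. At the other 5 the islands met at an edge. The SUDHL6 overlap was 900 bp, from 118753951 to 118754850, where an H3K27me3 island of 3.0 kb met an H3K4me3 island of 4.05 kb. HT had no island of any antibody on those 900 bp.

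Sites with H3K27me3 in 1 line and H3K4me3 in the other were few. HT H3K27me3 met SUDHL6 H3K4me3 in 5 of 235 islands, 2.13% (0.694 to 4.90%), against 3.75% of the list. SUDHL6 H3K27me3 met HT H3K4me3 in 2 of 136 islands, 1.47% (0.179 to 5.21%), against 2.55%. At 119596651 to 119598450 the whole HT H3K27me3 island of 1.8 kb lay within a SUDHL6 H3K4me3 island of 4.2 kb. At 112150501 to 112151850 a SUDHL6 H3K4me3 island of 1.35 kb lay inside an HT domain of 10.8 kb. At 118821001 to 118821900 an HT domain of 12.75 kb ran 900 bp into a SUDHL6 H3K4me3 island of 2.1 kb. None of these 3 had HT H3K4me3 or SUDHL6 H3K27me3 in the overlap, so the mark called on those bases differed between the lines. SUDHL6 did have H3K27me3 elsewhere in the HT domain of 12.75 kb, from 118824901 to 118829100. The HT island of 1.8 kb had a score of 15.6 per kb, against a median of 20 in its list. At the other 2, 110166601 to 110167350 and 113644201 to 113644800, HT had H3K4me3 as well as H3K27me3, so the lines differed only by H3K27me3.

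In the reverse direction, SUDHL6 H3K27me3 of 3.45 kb met the edge of an HT H3K4me3 island of 6.6 kb over 600 bp, from 116660251 to 116660850. The second overlap, 118530751 to 118530900, was 150 bp long, 1 calling window. SUDHL6 H3K4me3 lay on neither of these overlaps. Most H3K27me3 that was present in HT and absent from SUDHL6 lay where neither line had H3K4me3. H3K4me3 covered only 3.07% of the segment in HT and 1.25% in SUDHL6, so this would hold wherever its islands lay. SUDHL6 H3K4me3 covered 5.4 kb, or 0.200%, of the HT H3K27me3 length in the segment, against 1.79% over the whole list.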

How the data were processed

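H3K27me3, EZH2 and H3K4me3 ChIP-seq of HT and SUDHL6 was used, 1 library and 1 island list for each line and antibody. The 2 input samples were not used here. SICER and hg19 are listed per the submitters' processing notes, and the names of the files hold a window (150 bp), a gap (450 bp) and an FDR (1E-7). The aligner and control are not given in the sources used here, and neither is depth. The authors deposited a whole-number score for each island, whose meaning was not given, so it was read only within a list.

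Ends in the files are inclusive, and positions are printed counted from 1. Islands overlapping 110 to 120 Mb of chromosome 11 were taken, and overlap meant at least 1 bp. Sites present in both lines are groups of overlapping islands, with widths summed per line. H3K27me3 islands of at least 10 kb are called domains. Simulated islands were used to check the overlap code. The members, lists and measures were chosen with earlier results of these data known. Regions were named by a fixed rule: the 5 widest H3K27me3 islands of each line, the 3 widest without the other line, every EZH2 island, the 3 widest H3K4me3 islands, the 5 longest overlaps of opposite marks and every overlap of both marks. Other regions, the division into the first 8 and last 2 Mb and the neighbouring windows were chosen after values were seen. Alternatives were an overlap of 50%, the upper 50% of scores in each list, islands within 5 kb joined, islands of at least 1 kb, lists of equal number or length, other bins, domains of 20 kb and the segment without its outer 0.5 Mb. The code ran in Python 3.11.15 (numpy 2.4.6, with scipy 1.17.1 for intervals and matplotlib 3.10.9 for figures).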

Additional observations from a re-analysis of the deposited data

Results flagged for a closer look

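Set against its own whole list, the segment differed in opposite directions in HT and SUDHL6 for 4 measures, each from 1 library per line, and none of these differences between the lines was tested. The median EZH2 width was 3000 bp above the list in HT (6600 against 3600 bp), and in SUDHL6 the difference was -750 bp (3750 against 4500 bp). The median EZH2 score per kb was 4.33 above the list in HT, with a difference of -1.18 in SUDHL6. The share of H3K4me3 islands that overlapped H3K4me3 of the other line differed from the list by -12.7 percentage points in HT and by 6.5 in SUDHL6. The share of H3K4me3 islands over H3K27me3 of the same line differed by 6.9 points in HT and -0.63 in SUDHL6. The HT value rests on HT H3K27me3, for which the segment was chosen, so it is a description.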

How the results depend on the processing

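Of 114 recomputed values, 91 stayed within a counting interval around the main value (or within 1.5 times for counts) and 23 moved. For the log2 length ratios that interval came from the numbers of islands, centred on the length ratio. It is thus a yardstick and not the error of a length. Direction was checked only for the log2 ratios between lines, and none of these reversed. The log2 number ratio for H3K4me3 was 0.05 in the full lists and 0.00 with the upper 50% of scores. The number of EZH2 islands had no direction to change. Its log2 ratio was 0.00 in the full lists, 1.49 with the upper 50% of scores and -0.18 in lists of equal number. With the upper 50% of scores in each list, HT exceeded SUDHL6 in log2 covered length by 3.32 for H3K27me3 and 2.57 for EZH2. In log2 number of islands it did so by 1.99 and 1.49. This cut ranks islands by whole-island score, which tends to rise with width, so it is no check apart from width. In that setting the share over the other line was 6.73% of HT and 37.5% of SUDHL6 H3K27me3 islands, and 0% of EZH2 islands of either line. HT H3K27me3 over SUDHL6 H3K4me3 was then 0.448%, and SUDHL6 H3K4me3 over H3K27me3 was 0%. Fewer islands are left to be met there. With an overlap of at least 50%, the share over the other line was 2.13% of HT H3K27me3, 18.3% of HT H3K4me3 and 0% of HT EZH2 islands. With that overlap H3K4me3 over H3K27me3 was 3.33% in HT and 0% in SUDHL6, and H3K27me3 over H3K4me3 of the other line was 0.426% in HT and 0% in SUDHL6. Wide islands can reach such an overlap only with wide partners. With islands within 5 kb joined, the number ratio for H3K27me3 was 0.42, and SUDHL6 had 11 domains. At a domain width of 20 kb the counts were 25 in HT and 0 in SUDHL6. Without the outer 0.5 Mb, 0% of EZH2 islands of either line met the other line, since the shared site lies there. In lists cut by the same score to the same total length, H3K27me3 kept a log2 length ratio of 2.67, while H3K4me3 had 1.54 and EZH2 1.42. The median H3K4me3 width ratio without the last 2 Mb, 2.33, was an alternative chosen after seeing the data. No paired analysis was possible because each line and antibody had 1 library.

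Depth is unknown and limits what a missing island shows. The 17 EZH2 islands of each line leave wide intervals. Neighbouring islands are not independent, which the intervals do not cover.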
